A study of Caenorhabditis elegans with 10 samples.

Results

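Isoforms of protein-coding genes whose use shifted the same way in 2 different sftb-1 mutants at the L2 larval stage are described here. For each transcript, its share was its normalized read count divided by the summed count of all transcripts of its gene. A transcript was kept when its mean share differed from wild type (WT) by at least 0.2 in the same direction in sftb-1(cer39) and in sftb-1(cer6), with all 4 mutant libraries beyond both WT libraries. The genes had at least 2 transcripts and a gene sum of at least 200 in all 6 libraries. The rule kept 84 transcripts of 49 genes out of 10974 eligible transcripts of 3798 genes, which is 0.765% of the transcripts and 1.29% of the genes. The table holds 23421 transcripts of 15355 genes in all. The transcripts were thus selected on their shares against WT at L2, and the values of those contrasts are given as a description with no test.

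sftb-1 is the Caenorhabditis elegans ortholog of human SF3B1, the subunit of the U2 snRNP that helps to recognize the branch site before the first step of splicing. Most multi-isoform genes of this nematode use alternative exons, alternative 5' or 3' splice sites, alternative promoters or alternative 3' ends, and the isoforms of a gene can encode different proteins or differ only in untranslated sequence. A share measures how the reads of a gene divide among its isoforms and is blind to how much RNA the gene makes in total. It is not corrected for isoform length, so a longer isoform takes more reads per molecule. It also rests on how reads that fit several isoforms were divided among them.

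RNA-seq was done on whole larvae of C. elegans, with 2 libraries per group. At L2 the larvae were grown for 23 h. cer6 is a deletion in sftb-1 with a premature stop, and homozygotes were sorted by machine as the non-red progeny of balanced mothers. They can hold maternal product, and some red contaminants stayed in the samples. N2 WT larvae went through the same sorter at matching settings. cer39 carries 3 missense changes together (Q552P, R643C and K718E), and these larvae were not sorted, so allele and sorting cannot be told apart. The other stage of the series served as an independent set: L4 animals grown for 41 h carrying K718E alone (alleles cer3 and cer7), with a WT sibling strain from the outcross of each allele. The L2 libraries were made from rRNA-depleted total RNA and the L4 libraries from polyadenylated RNA. The L2 replicates are separate biological replicates by the study's methods, and the K718E replicates are 2 strains. The p-values rest on the spread between 2 libraries per group and on spread borrowed from all features of a fit.

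The L2 libraries held 45313447 to 76420120 reads and the L4 libraries 56996614 to 66563409. Summed over its transcripts, sftb-1 itself was at 6152 and 7222 normalized counts in WT, 7333 and 6706 in cer39, and 3229 and 3580 in cer6, so it was lowest in the libraries labelled cer6. Marker genes of germ line, body wall muscle, pharynx, neurons, intestine and hypodermis were all detected in the table, and none of the listed genes found there was at 0. Their summed counts differed between replicates as well as between groups. The neuron sum was 49583 and 49180 in WT, 55563 and 51069 in cer39, and 67680 and 67353 in cer6, higher in both cer6 libraries than in the other 4. The germ line sum ran from 7269 to 20645, with both cer39 libraries below the other 4. The pharynx sum was 22564 and 27309 in cer6, below the other 4 libraries (29866 to 63412). The part of tissue make-up in the shares was not tested, and in whole larvae fewer cells of a type and less RNA per cell cannot be told apart.

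Of the 84 transcripts, 46 had a higher share in both mutants (0.419% of the eligible transcripts) and 38 a lower share (0.346%). In 35 of the 49 genes both a gained and a lost isoform were kept, in 11 only a gained isoform and in 3 only a lost one. The median absolute difference was 0.251 in cer39 and 0.314 in cer6. The difference was larger in cer6 for 47 transcripts and larger in cer39 for 31. These counts are not independent, because in 24 genes the only other isoform mirrors the difference. By gene, the difference was larger in cer6 for 27 of the 49. Over all eligible transcripts, 3.35% reached the rule's minimum difference from WT in cer6 and 2.42% in cer39, so larger differences in cer6 were not particular to the kept transcripts. The isoform with the largest read share in WT lost that place in both mutants in 23 of the 49 genes. The genes lay on all 6 chromosomes, with 5 on I, 10 on II, 11 on III, 6 on IV, 10 on V and 7 on X.

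**Figure D1:**
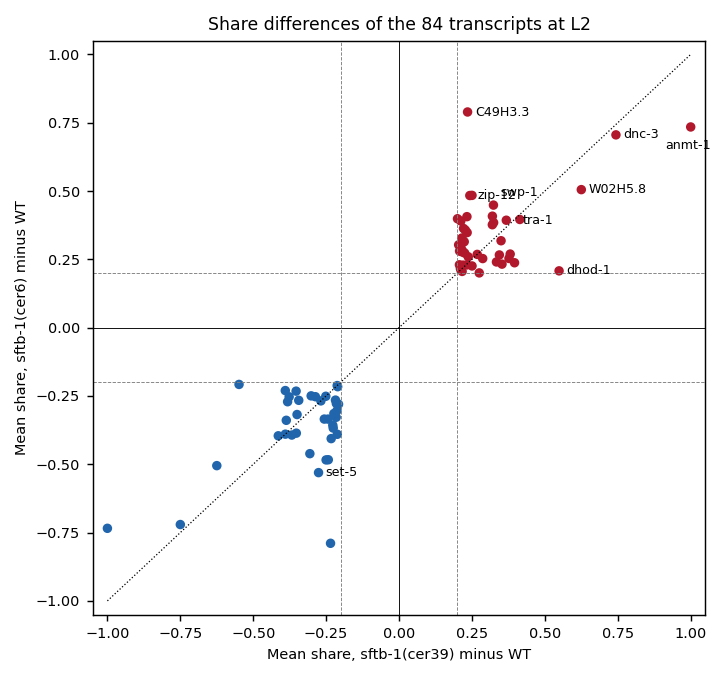
Mean share in sftb-1(cer39) minus WT (x axis) against mean share in sftb-1(cer6) minus WT (y axis), both as fractions, for the 84 transcripts; red points gained share, blue points lost it, dashed lines mark a difference of 0.2 and the dotted line equal differences. Only the lower left and upper right corners are filled because the rule selected them, and anmt-1, dnc-3 and C49H3.3 lie farthest out.

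Such differences have to be read beside the spread between replicates. Over all eligible transcripts, the 2 libraries of a group differed in share by 0.2 or more in 3.77% of transcripts in WT, 3.03% in cer39 and 3.39% in cer6. Among the 84, this was the case for 13.1%, 14.3% and 17.9%. All 4 mutant libraries lay above both WT libraries for 11% of the eligible transcripts and below them for 11.1%, whatever the size of the difference. The gap between the nearest mutant library and the nearest WT library had a median of 0.144 over the 84 and was largest in anmt-1, at 0.469, and close to 0 in D2023.1. It was below 0.05 for 12 transcripts, those of D2023.1, gem-4, lron-2, dnc-2, pqn-62, E02H1.1 and let-526. With any single library left out, 27 transcripts of 15 genes still met the rule.

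Counting error was smaller than this. The genes had 187 to 26064 reads per library, and the 95% Wilson interval of a share had a median half-width of 0.0212 and at most 0.0709. A share of 0 occurred in 34 of 504 values, and 3 reads would allow a share of 0.000998 to 0.0104 there. Intervals and limits cover counting error only and not the assignment of reads to isoforms.

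**Figure D2:**
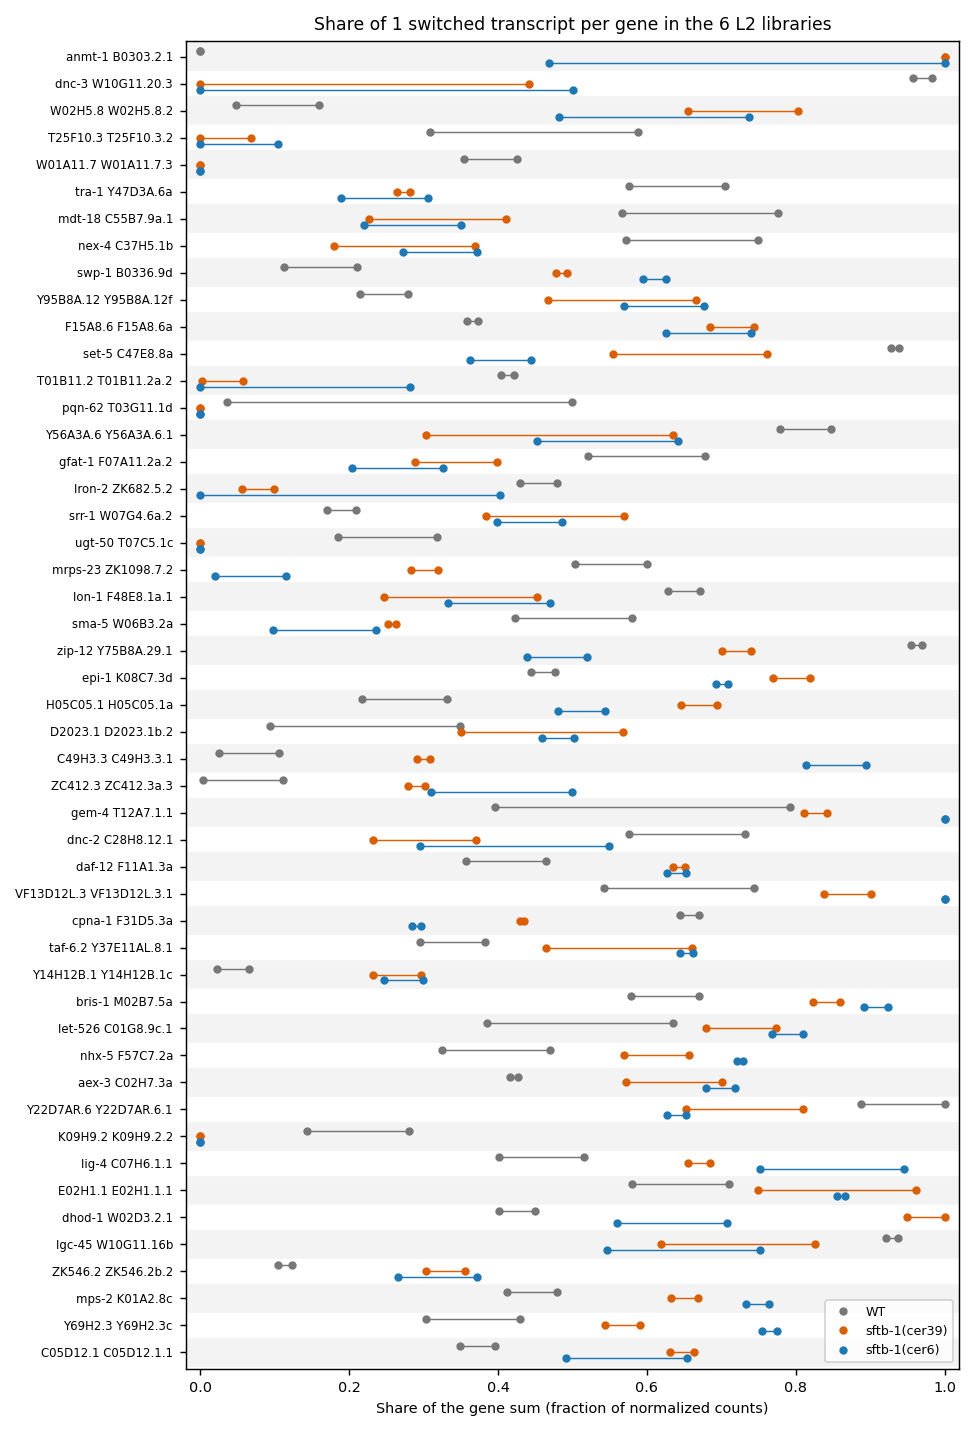
Share of the gene sum (x axis, fraction of normalized counts) of 1 transcript per gene, the one with the largest smaller difference, for the 49 genes in order of that difference; points are the 6 L2 libraries, lines join the 2 libraries of a group. In anmt-1, dnc-3 and W02H5.8 WT stands far from the mutants, while in D2023.1, gem-4 and pqn-62 the groups almost touch.

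The largest shift was in anmt-1 (III:8684808-8686408), which encodes an amine N-methyltransferase. Its isoform B0303.2.1 had a share of 0 in both WT libraries, 1 in both cer39 libraries, and 1 and 0.469 in cer6. B0303.2.2, the only other isoform, took the remainder, so this gene exchanged all of its reads in 3 of the 4 mutant libraries. The WT values of 0 rest on 529 and 352 reads of the gene and allow up to 0.00567 and 0.00852. The gene sum was alike, with means of 447 in WT, 479 in cer39 and 405 in cer6.

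dnc-3 (II:3553724-3554617) encodes a small subunit of dynactin, the cofactor of the dynein motor. The share of W10G11.20.3 was 0.958 and 0.984 in WT, 0.442 and 0 in cer39, and 0.501 and 0 in cer6. W10G11.20.2 took its place, at 0.0299 and 0.00149 in WT, 0.558 and 0.961 in cer39, and 0.477 and 0.966 in cer6. In each mutant, replicate 1 held both isoforms and replicate 2 almost only W10G11.20.2. dnc-2, which encodes the dynamitin subunit of the same complex, was also among the 49 genes (III:5924394-5925756). Its isoform C28H8.12.2 was at 0.424 and 0.268 in WT, 0.768 and 0.63 in cer39, and 0.452 and 0.705 in cer6, and 1 of the cer6 libraries lay only just above WT.

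W02H5.8 (V:2647055-2652657) had its minor WT isoform W02H5.8.2 at 0.159 and 0.0484, at 0.655 and 0.802 in cer39, and at 0.737 and 0.481 in cer6. It held the larger read share in 3 of the 4 mutant libraries. For T25F10.3 (V:6745081-6748613), isoform T25F10.3.2 was at 0.309 and 0.587 in WT, 0 and 0.0681 in cer39, and 0.105 and 0 in cer6. W01A11.7 (V:6504540-6505389) lost W01A11.7.3 altogether, from 0.354 and 0.426 in WT to 0 in all 4 mutant libraries, while W01A11.7.2 went from 0.512 and 0.525 to 0.842 and 0.834 in cer39 and 0.937 and 0.915 in cer6. The mean gene sum of W01A11.7 was 240 in WT, 386 in cer39 and 1280 in cer6, so here share and total both differed.

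Several of the genes act in transcription and RNA control. tra-1, the zinc finger factor of the Gli family at the end of the sex determination pathway (III:11170890-11195201), makes a long (a) and a short (b) isoform. The short isoform Y47D3A.6b was at 0.423 and 0.296 in WT, 0.718 and 0.736 in cer39, and 0.811 and 0.694 in cer6. The isoform with the smaller read share in WT therefore had the larger one in all 4 mutant libraries. The length of the b model minus that of the a model was -3384 bases. Without a correction for length, these shares do not tell which isoform had more molecules. The mean gene sum was 2244 in WT, 4264 in cer39 and 3227 in cer6.

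swp-1, the ortholog of the fruit fly splicing regulator suppressor of white apricot (III:5702204-5705525), was the only one of 22 eligible SR proteins and other splicing regulators among the 49 genes. Isoform B0336.9d was at 0.113 and 0.21 in WT, 0.478 and 0.493 in cer39, and 0.626 and 0.594 in cer6, the largest share of its 6 isoforms in every mutant library. B0336.9b.2 went the other way, with means of 0.408, 0.19 and 0.143. None of 6 eligible core genes of the U2 and later spliceosome and none of 5 eligible genes with known unproductive isoforms was kept. The same held for 22 eligible neuronal and signalling genes with alternative exons. Over all eligible genes 1.29% were kept, so counts of 0 or 1 in lists of these sizes are no result about the lists.

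mdt-18 encodes a subunit of Mediator, the bridge between transcription factors and RNA polymerase II. Its isoform C55B7.9a.1 was at 0.566 and 0.776 in WT, 0.227 and 0.411 in cer39, and 0.351 and 0.22 in cer6, and C55B7.9a.3 gained. taf-6.2, for a subunit of the general factor TFIID, had Y37E11AL.8.1 at 0.382 and 0.296 in WT, 0.661 and 0.464 in cer39, and 0.662 and 0.645 in cer6. let-526 encodes a subunit of the SWI/SNF chromatin remodelling complex, and its C01G8.9c.1 was at 0.636 and 0.385 in WT against 0.68 to 0.81 in the mutants. The spread within WT was as large there as the step to the mutants.

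set-5, which encodes a SET domain protein (V:14698966-14707601), used isoform C47E8.8a almost alone in WT, at 0.939 and 0.929. That share was 0.554 and 0.761 in cer39 and 0.444 and 0.362 in cer6. C47E8.8d was at 0.0326 and 0 in WT, 0.353 and 0.18 in cer39, and 0.128 and 0.357 in cer6. Another isoform, C47E8.8b, was at 0 in all WT and cer39 libraries and at 0.307 and 0.213 in cer6. zip-12, for a basic leucine zipper factor, had its gained isoform at 0.0447 and 0.0297 in WT, 0.299 and 0.261 in cer39, and 0.561 and 0.481 in cer6, so the groups formed 3 separate levels. daf-12, the nuclear hormone receptor that ties dauer and developmental decisions to steroid hormones, had F11A1.3a at 0.357 and 0.464 in WT, 0.652 and 0.635 in cer39, and 0.628 and 0.653 in cer6, nearly equal in both mutants.

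In muscle and extracellular matrix, epi-1 (IV:10666823-10679291), for a laminin alpha chain of basement membranes, was kept. It was the only one of 24 eligible genes of the muscle and matrix list, beside 1.29% of all eligible genes, which is no result about the list. K08C7.3d was at 0.476 and 0.445 in WT, 0.77 and 0.819 in cer39, and 0.709 and 0.693 in cer6. K08C7.3c, which the rule did not keep, was at 0.361 and 0.345 in WT and between 0.108 and 0.17 in the mutants, the largest loss in the gene. cpna-1, a copine domain protein of the muscle attachment structures (II:4186664-4208500), had F31D5.3b at 0.328 and 0.3 in WT, 0.532 and 0.537 in cer39, and 0.682 and 0.671 in cer6. Replicates lay close together there, and the groups again lay at 3 levels. gem-4, another copine, had T12A7.1.1 at 0.792 and 0.395 in WT, 0.842 and 0.811 in cer39 and 1 in both cer6 libraries, so WT replicate 1 came close to the cer39 libraries.

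Genes of growth, signalling and membrane traffic were further members. lon-1, a secreted protein that sets body length under the Sma/Mab TGF-beta pathway (III:5474476-5478005), had F48E8.1a.1 at 0.629 and 0.672 in WT, 0.246 and 0.452 in cer39, and 0.332 and 0.469 in cer6. sma-5, a MAP kinase that affects body size, had W06B3.2a at 0.58 and 0.422 in WT, 0.263 and 0.253 in cer39, and 0.0973 and 0.235 in cer6. nhx-5, a sodium/proton exchanger, had F57C7.2a at 0.325 and 0.469 in WT, 0.569 and 0.656 in cer39, and 0.721 and 0.73 in cer6. In lon-1 the libraries of the 2 mutants overlapped, while for W06B3.2a and F57C7.2a both cer6 libraries lay beyond both cer39 libraries. The gained isoform W06B3.2d of sma-5 overlapped, at 0.295 and 0.312 in cer39 and 0.401 and 0.251 in cer6. aex-3, the exchange factor for the synaptic vesicle GTPase RAB-3, had C02H7.3a at 0.427 and 0.416 in WT, 0.701 and 0.572 in cer39, and 0.718 and 0.68 in cer6. nex-4, an annexin, had C37H5.1b at 0.571 and 0.75 in WT, 0.369 and 0.179 in cer39, and 0.272 and 0.371 in cer6.

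Among enzymes and mitochondrial genes, gfat-1, the entry enzyme of hexosamine synthesis, had F07A11.2a.2 at 0.678 and 0.521 in WT, 0.398 and 0.289 in cer39, and 0.326 and 0.204 in cer6. lig-4, the DNA ligase of non-homologous end joining, had C07H6.1.1 at 0.402 and 0.515 in WT, 0.655 and 0.685 in cer39, and 0.752 and 0.945 in cer6. mrps-23, for a protein of the mitochondrial small ribosomal subunit, had ZK1098.7.1 at 0.497 and 0.4 in WT, 0.716 and 0.681 in cer39, and 0.885 and 0.981 in cer6. In all 3 genes the cer6 mean was farther from WT than the cer39 mean. ugt-50, a UDP-glucuronosyltransferase, lost T07C5.1c, at 0.318 and 0.185 in WT and at 0 in all 4 mutant libraries, where 3 reads would allow at most 0.00323.

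The first 12 genes in order of difference also hold Y95B8A.12 and F15A8.6, for which no role is given here. Y95B8A.12 had isoform Y95B8A.12b at 0.592 and 0.506 in WT, 0.285 and 0.202 in cer39, and 0.0873 and 0.0883 in cer6. F15A8.6 had F15A8.6a at 0.358 and 0.373 in WT, 0.685 and 0.744 in cer39, and 0.74 and 0.626 in cer6. The libraries of the 2 mutants did not overlap for Y95B8A.12b and overlapped for F15A8.6a. They also overlapped for the gained isoform Y95B8A.12f, at 0.467 and 0.665 in cer39 and 0.677 and 0.569 in cer6.

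Some genes stand out for the unequal size of their difference and were chosen after their values were seen. For C49H3.3 (IV:7924350-7924968), C49H3.3.1 was at 0.0246 and 0.105 in WT, 0.291 and 0.308 in cer39, and 0.814 and 0.894 in cer6. dhod-1, the dihydroorotate dehydrogenase of pyrimidine synthesis, went the other way in size: W02D3.2.1 was at 0.45 and 0.402 in WT, 0.949 and 1 in cer39, and 0.56 and 0.708 in cer6. In pqn-62, T03G11.1d was at 0.5 and 0.0361 in WT and at 0 in all mutant libraries, so its place in the set rests on WT replicate 1. With WT replicate 2 alone the difference was 0.0361.

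The values near the threshold were close together. Just inside were C05D12.1.1 of C05D12.1, Y69H2.3c of Y69H2.3 and K01A2.8c of mps-2, with smaller differences of 0.2003, 0.2004 and 0.2043. Just outside were C56G2.3.2 and C56G2.3.1 of C56G2.3, both at 0.1999, and K04B12.2a.2 of K04B12.2 at 0.1987.

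What the switched isoforms share in structure was read from their names and from the Ensembl annotation of WBcel235, release 115. In WormBase names, isoforms with different letters encode different proteins and isoforms that differ only in a final number share their protein. For each gene the isoform with the largest mean gain and that with the largest mean loss over both mutants were compared. In 26 of 49 genes (53.1%) these differed only in the number, against 35% of the eligible genes when their 2 most abundant WT isoforms were compared. The other 23 genes (46.9%) changed letter, against 65%. The median absolute difference was 0.253 in cer39 and 0.353 in cer6 for the first class, and 0.251 and 0.28 for the second.

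Both models were found in the annotation for 26 of the 49 genes. Of these, 11 (42.3%) differed in the first exon, against 35.6% of 2306 eligible genes. They include mdt-18, nex-4, ugt-50, zip-12, daf-12, dhod-1 and Y95B8A.12. In 5 (19.2%, against 6.68%) all introns were the same and only the ends of the models differed: anmt-1, C49H3.3, dnc-2, pqn-62 and C05D12.1. The ends of the anmt-1 models lay 1 and 9 bases apart, those of C49H3.3 3 and 1, and those of dnc-2 2 and 2. These 3 genes therefore moved large shares between models that were almost identical.

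The remaining pairs differed by an internal piece or a 3' end. A skipped exon told the isoforms apart in swp-1 (60 bases), set-5 (114 bases) and cpna-1 (48 bases). lgc-45, for a ligand-gated ion channel, differed by 36 bases at an acceptor site, lon-1 by 33 bases at a donor site and gem-4 by a retained intron of 21 bases. The 6 pieces were all multiples of 3 bases, against 71.4% of 874 eligible genes with a single differing piece. In gem-4 the coding sequence was the same in both isoforms, so its piece lies outside it. tra-1 and aex-3 differed in the last exon, and epi-1 and Y69H2.3 in several parts. The coding sequence was the same in 9 of the 26 pairs (34.6%, against 17.5%). An acceptor site alone was the difference in 1 of the 26 genes (3.85%), against 14.6% of the eligible genes. With so few genes, these 2 percentages are no result about acceptor sites.

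**Figure D3:**
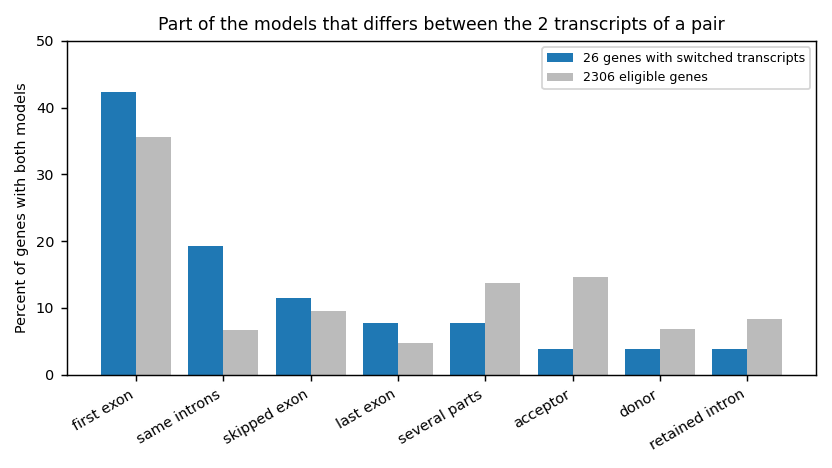
Percent of genes (y axis) by the part in which the 2 isoforms of a pair differ (x axis); blue bars are the 26 genes with both models, grey bars the 2306 eligible genes compared by their 2 most abundant WT isoforms. First exons are the largest class in both, at 42.3% and 35.6%, and pairs with the same introns are at 19.2% and 6.68%.

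The limits of this comparison lie in the annotation. The authors used release 87, and 21 of the 84 isoform names had no model in release 115, while 35 matched by name and 28 after adding a final number. A model was lacking for 17 of the 26 genes whose pair differed only in the number, and for 6 of the 23 that changed letter. The percentages for structure and coding sequence thus come from a part with relatively more changes of letter. When isoforms with the same introns were summed, 27 of 4995 summed isoforms (0.541%) met the rule, in 16 genes that were all among the 49. Only genes with every isoform matched to a model could enter, which leaves 20 of the 49. The 16 genes are mdt-18, tra-1, Y95B8A.12, set-5, zip-12, epi-1, daf-12, cpna-1, gem-4, aex-3, dhod-1, lgc-45, Y14H12B.1, Y22D7AR.6, Y69H2.3 and bris-1.

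Reads at listed splicing events give a second view of the same libraries, without assigning reads to whole isoforms. For K718E, the paper used exon body reads beside splice junction reads, so inclusion reads need not cross a junction. In the lists of splicing events that the authors called with rMATS, 9 of the 49 genes had an event in cer39 and 11 in cer6. Of the eligible genes, 6.32% and 7.56% had one. In either mutant, 14 of the 49 genes had an event, beside 409 of 3798 eligible genes. An event that tells the gained from the lost isoform was listed in cer39 for 4 genes and in cer6 for 5. It went the same way as the share in all of them. None of the 5 genes whose pair shares all introns had a listed event. Isoforms with the same introns leave a splicing event nothing to tell apart, so this count is no result about these genes. These lists come from the libraries that chose the isoforms, so they are a description.

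Inclusion levels were computed from the inclusion and skipping reads of both libraries of a group and corrected for the length of each form. In swp-1 the 60-base exon (III:5704688-5704747) was included at a level of 0.839 in WT, 0.357 in cer39 and 0.168 in cer6. The reads were few, with 22 as the lowest total of a library at this event. In cpna-1 the 48-base exon (II:4206220-4206267) went the other way, from 0.319 in WT to 0.56 in cer39 and 0.707 in cer6, with 122 reads or more per library. The inclusion reads were 55 and 72 in WT, 125 and 90 in cer39, and 189 and 194 in cer6, beside 67 and 98, 60 and 43, and 49 and 48 skipping reads. At lon-1 the longer 5' splice form (III:5476374-5476529) was at 0.806 in WT, 0.64 in cer39 and 0.636 in cer6, the best covered of these events, with at least 654 reads per library.

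The lgc-45 event, at an alternative 3' splice site (II:3564625-3564944), had a level of 0.93 for the longer form in WT, 0.738 in cer39 and 0.659 in cer6. The set-5 exon (V:14705818-14705931) was listed in cer6 alone, at 0.963 in WT and 0.788 in cer6, on 30 reads or more per library. Further listed exons lie in genes whose pair had no model, and were chosen after their values were seen. An exon of nhx-5 (X:10580389-10580440) had a level of 0.642 in WT and 0.356 in cer6, and an exon of D2023.1 (V:11794762-11794832) of 0.0104 in WT and 0.273 in cer39.

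**Figure D4:**
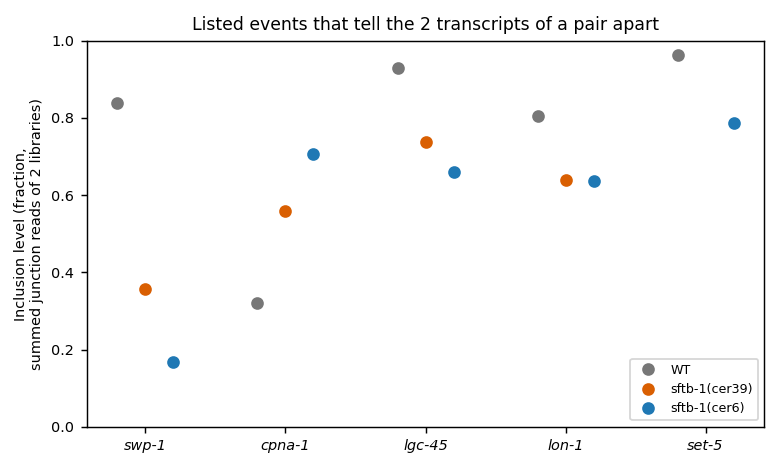
Inclusion level (y axis) for the 5 genes (x axis) whose listed event tells the gained from the lost isoform. Levels are fractions from the event reads of both libraries of a group summed, which the axis calls junction reads. Grey is WT, orange sftb-1(cer39) and blue sftb-1(cer6), and set-5 has no orange point because no cer39 event was listed. swp-1, lgc-45, lon-1 and set-5 lie below WT in the mutants and cpna-1 lies above.

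The totals of these genes were near WT in cer39 and more often off WT in cer6. None of the 49 gene sums was 2-fold or more off WT in cer39 (eligible genes 3.34%), and 7 were higher and 3 lower by that much in cer6 (eligible genes 9.43%). The median log2 ratio to WT over the 49 genes was -0.13 in cer39 and -0.01 in cer6, beside -0.11 and -0.09 over the eligible genes. W01A11.7 at 2.41, gem-4 at 1.44, pqn-62 at 1.21 and lon-1 at 1.18 were the highest log2 ratios in cer6, and T01B11.2 at -1.73, VF13D12L.3 at -1.44 and D2023.1 at -1.43 the lowest.

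The difference between the mutants was fitted over all transcripts. Its values for the 84 come from the libraries that the rule used, and the rule limits how far apart the mutants can lie, so the counts over the 84 are a description and not an independent test. limma on the log2 odds of the share (isoform against the rest of its gene, plus 1 on each side) called 26 of 9346 transcripts between cer6 and cer39, which is 0.278%, and 2 of the 84. Of the 26, 12 were higher in cer6 (0.128%) and 14 lower (0.15%), with 1 of the 84 in each direction. Both belong to VF13D12L.3 (II:11706009-11713602). VF13D12L.3.1 was at 0.744 and 0.542 in WT, 0.838 and 0.902 in cer39, and 1 in both cer6 libraries, and the only other isoform took the remainder. The log2 odds of VF13D12L.3.1 were higher in cer6 by 7.71 (SE 0.53, limma adjusted p = 0.0291), and the size rests on the value added to the counts of 0. edgeR called the lost isoform (adjusted p = 0.0112) and not the gained one (adjusted p = 1), among 48 calls in all (0.514%). The call was lost without any single library of the 2 mutants, with adjusted p from 0.113 without cer39 replicate 2 to 0.137 without cer39 replicate 1, 0.121 without cer6 replicate 1 and 0.127 without cer6 replicate 2.

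At an unadjusted p under 0.05 were 22 of the 84, those of VF13D12L.3 included, against 12.3% of all transcripts tested. The adjusted values of the others missed the threshold. Among these, F31D5.3a of cpna-1 was lower in cer6 by 0.90 on the log2 odds scale (SE 0.13, limma adjusted p = 0.132). The gained isoform of zip-12 was higher by 1.49 (SE 0.31, limma adjusted p = 0.223) and C49H3.3.1 of C49H3.3 by 3.82 (SE 0.81, limma adjusted p = 0.227). K08C7.3d of epi-1, which was gained in both mutants, was lower in cer6 than in cer39, with -0.73 (SE 0.18, limma adjusted p = 0.263). With 2 libraries per group, a miss does not show that the mutants are alike.

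The K718E strains asked whether the same isoforms shift with that change alone, in other animals and at L4. By name, 52 of the 84 isoforms were in the L4 table, and 32 isoforms of 22 genes passed the filters there. The L4 table holds 58941 transcripts of 46739 genes, against 23421 of 15355 at L2, so the isoform sets differ. A share at L4 can thus be taken over other isoforms than at L2. limma called none of these 32 and none of 7825 transcripts (0%). In simulated data this fit recovered 24.6% of transcripts moved by a share of 0.2 and 56.2% at 0.4. A miss therefore does not show that a share was unchanged. At an unadjusted p under 0.05 were 4 of the 32, beside 7.34% of all. They include both isoforms of gem-4, which carry the same p. edgeR's diffSpliceDGE on the recovered reads called 17 transcripts (0.218%), with 2 of the 32 among them.

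Both K718E libraries lay beyond both WT siblings in the L2 direction for 4 isoforms and in the other direction for 4, where 19.1% of all transcripts lay above and 18.8% below. The median absolute difference was 0.0325 over the 32 and 0.0208 over all transcripts tested. The WT share at L4 lay on the mutant side of the WT share at L2 for 16 of the 32 (50%), beside 52.6% of 5458 transcripts. Stage, library type and the isoform set of the table were all different.

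Of the 4 isoforms in the same direction, that of ugt-50 had the largest step. T07C5.1c of ugt-50 was at 0.6 and 0.724 in WT siblings and 0.534 and 0.53 in K718E (limma adjusted p = 0.728). Y69H2.3c of Y69H2.3 was at 0.122 and 0.133 against 0.194 and 0.151 (limma adjusted p = 0.731). M02B7.5a of bris-1 was at 0.221 and 0.218 against 0.295 and 0.242 (limma adjusted p = 0.744). F07A11.2a.4 of gfat-1 was at 0.014 and 0.0178 against 0.0246 and 0.027 (limma adjusted p = 0.641). An exon of Y69H2.3 (V:18661622-18661711) was the only listed K718E event in the 49 genes, against 1.55% of eligible genes. Its level was 0.626 in WT siblings and 0.445 in K718E. This event does not tell the gained from the lost isoform of the gene. The same exon was listed in both L2 mutants, at 0.439 in WT, 0.151 in cer39 and 0.142 in cer6. A second listing of it at L2 was at 0.3125, 0.1867 and 0.2092.

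The other 4 belong to C05D12.1, gem-4 and swp-1. C05D12.1.1, which was higher in both L2 mutants, was at 0.386 and 0.576 in WT siblings and at 0 in both K718E libraries. On the log2 odds scale it was lower by 8.005 (SE 0.60, limma adjusted p = 0.156, edgeR adjusted p = 0.0453). T12A7.1.1 of gem-4 was at 0.124 and 0.166 in WT siblings and at 0 in K718E, lower by 7.15 (SE 0.47, limma adjusted p = 0.148, edgeR adjusted p = 0.0453), while it was at 1 in both cer6 libraries. B0336.9d of swp-1 was at 0.435 and 0.47 in WT siblings and 0.412 and 0.376 in K718E (limma adjusted p = 0.731). For C05D12.1 and gem-4, the direction at L4 was thus opposite to that at L2 by values that do not overlap, on a call that edgeR made and limma did not. The models of the C05D12.1 pair share all introns, with ends 43 and 23 bases apart. Those of gem-4 differ by a retained intron of 21 bases and by 49 bases at the 3' end. These shares rest on how reads were divided between such similar models.

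**Figure D5:**
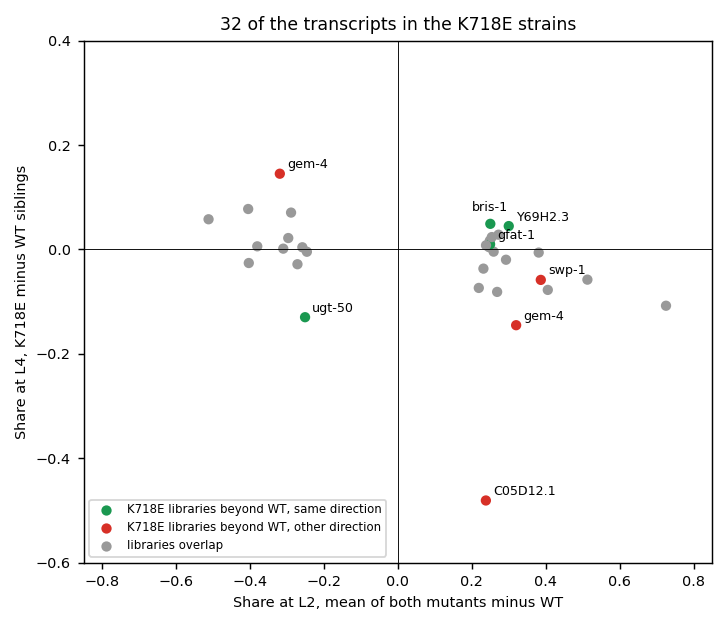
Mean share difference at L2 averaged over both mutants (x axis) against the share difference of K718E from WT siblings at L4 (y axis), both as fractions, for the 32 isoforms tested at L4; green and red points have both K718E libraries beyond both WT siblings in the same or the other direction, grey points overlap. There are 4 green and 4 red points, most of the 32 lie near 0 on the y axis, and C05D12.1 is lowest at -0.481.

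The totals of the 49 genes were compared in the same animals. limma on log2 gene sums called 63 of 15840 genes (0.398%), 62 of them higher in K718E (0.391%) and 1 lower (0.00631%), and 2 of the 49, both higher. At an unadjusted p under 0.05 were 17 of the 49, beside 20.3% of all genes. epi-1 was at 6551 and 8091 in WT siblings and 21342 and 20114 in K718E, higher by 1.51 (log2, SE 0.11, limma adjusted p = 0.000914), and the call held under every alternative tried. cpna-1 was at 4238 and 4069 against 6327 and 5909, higher by 0.56 (log2, SE 0.09, limma adjusted p = 0.0466). That call was lost without WT sibling replicate 1 (adjusted p = 0.145) or 2 (adjusted p = 0.116).

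By their strain labels, the WT siblings come from the outcross of cer3 (replicate 1) and of cer7 (replicate 2), which pairs them with the K718E libraries of those alleles. With the replicate number as a block, limma called 625 genes (3.95%) and 4 of the 49, adding pqn-62 (higher by 0.90, adjusted p = 0.000541) and lron-2 (higher by 0.73, adjusted p = 0.0087). lron-2 rested on K718E replicate 1, at 912 against 396 in replicate 2 and 321 and 406 in WT siblings. Without K718E replicate 1 or 2 the number of called genes was 1075 (6.79%) or 5173 (32.7%), and 8 or 21 of the 49, each from a fit that takes the spread of the lone K718E library from the other group.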

How the data were processed

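The deposited tables hold a signal value per transcript and library, which the authors made by aligning reads with STAR to WBcel235, counting with RSEM (release 87 gene models) and normalizing the counts with DESeq2. Versions of these tools are not given in the sources used here. All values were whole multiples of 1 read (100% within 0.1), so reads were recovered. In the L2 table, 1 row with shifted cells was left out. The deposited rMATS lists, filtered by the authors, gave inclusion and skipping read numbers per event, and the deposited fold changes and p-values were not used.

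The members and lists were chosen with earlier results of these data known. Shares were tested with limma 3.58.1 in R 4.3.3 on log2((transcript + 1)/(rest of gene + 1)) with a variance trend, for transcripts with a mean share of 0.02 to 0.98 in genes with a sum of at least 200, the 6 L2 libraries and the 4 L4 libraries each in a fit of their own. Gene sums used limma on log2(sum + 1) for means of at least 10. All p-values are two-sided and Benjamini-Hochberg adjusted over all features of a fit, with a threshold of 0.05. edgeR 4.0.16 on recovered reads was an alternative. The share fits were tested on simulated data first. Of transcripts set to move by a share of 0.2, the K718E fit recovered 24.6% and the cer6 against cer39 fit 3.73%. At a share of 0.4 they recovered 56.2% and 18.9%. Calls outside the changed genes were 15 of 126 and 6 of 36. Isoform structures came from Ensembl release 115. Deviations of same-numbered libraries correlated at -0.043 to 0.067 at L2, where libraries share only a number, and at 0.022 at L4, where the strain labels of the WT siblings name the outcross of cer3 or cer7. No genome sequence was used. Genes were named by a rule: the 12 with the largest smaller difference, those on a list, those with a call, 15 more with a known role, and 3 isoforms on each side of the threshold. Alternatives were other cuts, pseudocounts, filters, scalings, tools, a replicate block and leaving out each library.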

Additional observations from a re-analysis of the deposited data

Results flagged for a closer look

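The share of VF13D12L.3.1 differed between the mutants by the test of that difference, in libraries that also chose the isoforms, with log2 odds of 7.715 (cer6 minus cer39), and that of the only other isoform of the gene by -7.715. All reads of the gene were given to VF13D12L.3.1 in both cer6 libraries. The mean gene sum was 3910 in WT, 2737 in cer39 and 1444 in cer6. The cause was not tested.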

How the results depend on the processing

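The number of switched isoforms depends on the cut. From 84, it became 205 at a difference of 0.15 and 20 at 0.3, 138 at a gene sum of 50 and 31 at 1000. It was 42 with shares per base, where only genes with every isoform matched to a model entered, beside 35 for those genes with read shares. It was 27 with the same intron chains summed. These last 2 settings, matched genes and summed chains, were chosen after seeing the data. Without a single library it ran from 77 to 178 (178 and 169 without WT replicate 1 and 2, with 56 and 68 of the 84 kept). As a replicate block, with each mutant library set against the WT library of its number, 33 were kept.

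For K718E shares, the count of 0 calls (574 at an unadjusted p under 0.05) and of 0 among the switched isoforms became 17 and 2 with edgeR, under TMM and RLE alike, and stayed 0 in every other setting, the replicate block and each left-out library included. For cer6 against cer39, the 26 calls became 15 with a pseudocount of 5, 13 at mean shares of 0.1 to 0.9, 48 with edgeR (TMM and RLE), 9 on the arcsine scale, 3 with the replicate block, 4 with only the 4 mutant libraries and 2 to 16 without a single library. The 2 calls among the switched isoforms became 1 with edgeR and 0 in the other settings named here except mean shares of 0.1 to 0.9, where both remained called. For gene sums in K718E, 63 calls became 40 with no filter, 625 with the replicate block and 82 to 5173 without a single library. The 2 calls among the 49 genes became 1, 4 and 1 to 21. Of the single isoforms and genes followed, none changed sign. Adjusted p ranged from 0.0112 to 0.202 for the lost and 0.0219 to 1 for the gained isoform of VF13D12L.3. It ranged from 0.0452 to 0.781 for gem-4 T12A7.1.1 and C05D12.1.1 in K718E. The epi-1 gene sum was higher in K718E by 1.36 to 1.66 (log2) over the settings, and that of cpna-1 by 0.51 to 0.61. Depth limits shares less than the spread of 2 libraries does.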
